A study of Danio rerio with 20 samples.

Results

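AP-1 and the early response transcription factors were followed in livers of zebrafish larvae with and without inorganic arsenic. The group was given as 10 zebrafish gene names (fosab, fosb, fosl1a, fosl2, jun, junba, junbb, atf3, jdp2b and egr1), chosen for their function. The choice was made with earlier results of these data known. Matching those names to the symbols of the count tables found 11 of 32105 Ensembl identifiers, of which 10 had enough counts to be tested, among 16389 tested genes. The symbols are printed as the name table writes them: FOS stands for fosab, FOSL1 for fosl1a, and JUNB for both junba and junbb, which are told apart here by identifier. JDP2 is the symbol of 2 identifiers, one of which is jdp2b. The table does not say which, so both are described.

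AP-1 is a dimer of basic leucine zipper proteins. Proteins of the Fos family have to pair with a Jun protein to bind DNA, Jun proteins can also pair with each other, and ATF3 and JDP2 pair with Jun proteins and often repress the promoters they occupy. Most of these genes, together with the zinc finger gene egr1, belong to the immediate early class: growth factors, injury and stress switch them on within minutes through MAP kinases and the serum response factor, and many of their transcripts then decay fast. In the livers of mammals they are known for their part in regeneration and in the response to toxins, and arsenite is a known activator of the stress-activated MAP kinases in cultured cells.

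Messenger RNA was sequenced from pools of 12 to 15 livers dissected about 119 h after fertilization, 5 pools in each of 4 groups. Exposed mutants were as3mt-/- larvae from an incross of homozygous F2 fish, with a CRISPR deletion of 8 bp in exon 3 and a premature stop codon on the WT-ABNYU background. They were kept in 1 mM sodium arsenite from 96 h after fertilization, and unexposed mutants were the same line in 0 mM. Exposed and unexposed wild types were of the WT-TAB5 strain under the same conditions. Genotype and strain background differ together, so every difference between mutants and wild types is one between these 2 lines, and a replicate is a pool of livers from several larvae. The enzyme encoded by as3mt methylates arsenic. Its transcript, listed as AS3MT, was at 8.62 to 18.7 CPM (counts scaled to a common library size) in exposed mutants and 61.8 to 81.1 CPM in unexposed mutants. It was at 29.8 to 73.6 CPM in exposed wild types and 119 to 134 CPM in unexposed wild types.

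Libraries held 25406597 to 42047561 counts. CPM values are scaled by TMM factors, which set the bulk of genes equal between libraries. With total counts as library sizes instead, the typical gene (the median of 16389) sat at a log2 change of 0.83 for the exposure of mutants, 0.75 for that of wild types, and 0.25 and 0.18 for genotype with and without arsenite. Each direction below is therefore relative to that bulk, and members whose call depends on it are named. Markers of hepatocytes summed to 26000 to 39600 CPM in exposed mutants and 131000 to 165000 CPM in unexposed mutants, and to 41700 to 79200 CPM in exposed wild types and 157000 to 179000 CPM in unexposed wild types. None of the 12 hepatocyte markers stayed under 0.5 CPM in every library. In pooled livers, fewer cells of a type and less RNA per cell cannot be told apart. Endothelial markers were lower too, with a sum of 81.6 to 89.1 CPM in exposed mutants, against 224 to 276 CPM in unexposed mutants, and 120 to 145 CPM in exposed wild types, against 199 to 286 CPM in unexposed wild types. Macrophage markers, of which 3 of 14 stayed under 0.5 CPM in every library, summed to 487 CPM in unexposed wild-type replicate 1 and to 7.71 to 127 CPM in the other libraries. The part of these shifts in the values below was not tested.

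Arsenite split the group. ATF3 and FOSL1 rose 10.0- to 21.4-fold in mutants and wild types, egr1, FOS and both JDP2 genes fell in both, JUN fell in wild types, and FOSL2 and the JUNB genes did not pass the test in either genotype. Scaled by total counts, the falls of FOS in mutants and of JUN in wild types were not called. Nor were those of JDP2 (ENSDARG00000020133) in wild types and JDP2 (ENSDARG00000040137) in both genotypes. In mutants 2 of 10 tested members rose, 4 fell and 4 were not called at an adjusted p under 0.05 in edgeR's quasi-likelihood test, and 61.8% of all tested genes were called in that comparison, 31.5% up and 30.3% down. In wild types 2 rose, 5 fell and 3 were not called, against 53.3% of all tested genes called, 28.7% up and 24.6% down. With TMM scaling the share of members called (60% and 70%) was thus near the share of all genes. The median log2 change of the members was -0.67 in mutants and -0.96 in wild types, against 0.00 and 0.03 for all tested genes. With total counts as library sizes it was 0.17 and -0.25, against 0.83 and 0.75 for all tested genes. There 2 members were called up and 2 down in mutants, and 3 up and 2 down in wild types. With that scaling 11804 of 16389 tested genes were called in mutants and 11053 in wild types. The share of members called was then below that of all genes.

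**Figure D1:**
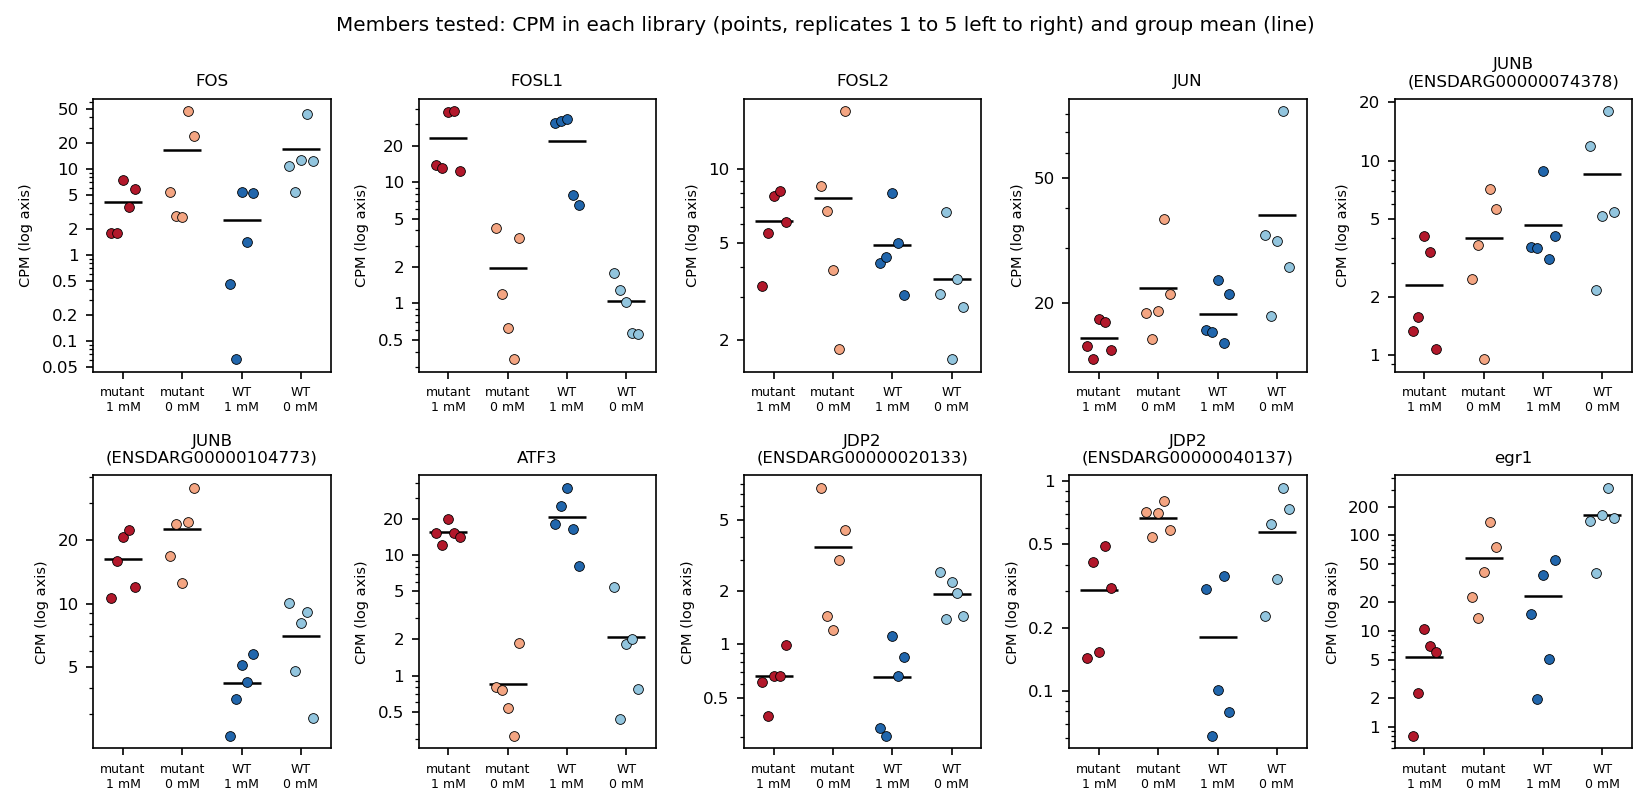
CPM of the 10 tested members (log axis, 1 panel per gene) in the 5 libraries of each group, with the group mean as a line. ATF3 and FOSL1 are high in exposed livers of both genotypes, and egr1 is lower there on average, with overlap in wild types. The JUNB gene ENSDARG00000104773 separates mutants from wild types at both exposures.

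FOS, the zebrafish counterpart of c-Fos, was among the most variable members. Its values in replicates 1 to 5 were 1.82, 1.81, 7.43, 3.60 and 5.88 CPM in exposed mutants, against 5.39, 2.81, 2.77, 46.7 and 24.3 CPM in unexposed mutants. Both groups overlapped, since 3 unexposed mutant libraries lay within the range of the exposed ones, and the fall (log2 fold change -2.0 ± 0.85 SE) passed the edgeR test narrowly (adjusted p = 0.047). It was lost when unexposed mutant replicate 4 was left out (-1.11, edgeR adjusted p = 0.254), and also without exposed mutant replicate 1, 2, 4 or 5, unexposed mutant replicate 5, exposed wild-type replicate 4, or unexposed wild-type replicate 1, 3 or 5 (edgeR adjusted p = 0.0519 to 0.0984). The call was lost as well with total counts as library sizes (-1.2, edgeR adjusted p = 0.208). Robust dispersions and a fit without a filter lost it too (edgeR adjusted p = 0.0735 and 0.053).

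In wild types FOS was at 0.459, 0.0612, 5.44, 1.40 and 5.25 CPM in exposed livers, against 10.7, 5.34, 12.6, 43.4 and 12.4 CPM in unexposed livers. Only the lowest unexposed library fell within the exposed range. The change was -2.73 ± 0.89 on the log2 scale (edgeR adjusted p = 0.0135), and without unexposed wild-type replicate 4, the highest of the group, it was -2.02 (edgeR adjusted p = 0.0594).

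FOSL1 encodes a Fos family protein that lacks the strong activation domain of c-Fos. It was at 13.8, 13, 38.0, 38.5 and 12.5 CPM in exposed mutants, against 4.21, 1.19, 0.621, 0.345 and 3.49 CPM in unexposed mutants. Every exposed mutant library lay above every unexposed one, and the rise was 3.57 ± 0.63 (11.9-fold, edgeR adjusted p = 5.15e-05). In wild types FOSL1 was at 30.6, 32.1, 33.3, 7.88 and 6.47 CPM in exposed livers, against 1.78, 1.30, 1.02, 0.565 and 0.562 CPM in unexposed livers. The exposed wild types formed a high set of 3 libraries and a lower set of 2, all above the unexposed ones, with a rise of 4.42 ± 0.67 (21.4-fold, edgeR adjusted p = 1.51e-05).

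FOSL2, the other Fos-related antigen gene, did not pass with arsenite in either genotype. It ranged from 3.32 to 8.16 CPM in exposed mutants (mean 6.16 ± 1.95 SD, n = 5), against 1.84 to 17.3 CPM in unexposed mutants (7.68 ± 5.99), a log2 change of -0.32 ± 0.44 (95% interval -1.23 to 0.59, edgeR adjusted p = 0.543). In wild types it ranged from 3.05 to 8.02 CPM in exposed livers (4.92 ± 1.87), against 1.67 to 6.73 CPM in unexposed livers (3.56 ± 1.91), a change of 0.48 ± 0.45 (edgeR adjusted p = 0.39). With total counts as library sizes the change in wild types was 1.2 and passed (edgeR adjusted p = 0.0267). FOSB was close to absent: all its counts summed to 15 in exposed mutants and 11 in unexposed mutants, and to 24 in exposed wild types and 6 in unexposed wild types, and it was not tested. Of the 3 Fos family genes tested, FOSL1 rose, FOS fell and FOSL2 did not pass.

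JUN, which encodes the main partner of the Fos proteins, changed less. It was at 14.6, 13.2, 17.8, 17.4 and 14.1 CPM in exposed mutants, against 18.5, 15.3, 18.9, 37.1 and 21.4 CPM in unexposed mutants. The ranges overlapped, and the change of -0.53 ± 0.30 did not pass (95% interval -1.16 to 0.10, edgeR adjusted p = 0.135). Without unexposed wild-type replicate 4, whose JUN level was 81.6 CPM, the same change passed in mutants (-0.53, edgeR adjusted p = 0.0361), as it did when only the mutant libraries were fitted (-0.54, edgeR adjusted p = 0.0391).

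In wild types JUN was at 16.4, 16.1, 23.6, 14.9 and 21.3 CPM in exposed livers, against 33.0, 18.1, 31.5, 81.6 and 26.0 CPM in unexposed livers. It fell by 1.04 ± 0.30 on the log2 scale (edgeR adjusted p = 0.00669), with unexposed replicate 2 as the one library inside the exposed range. Scaled by total counts, the change in wild types was -0.33 and not called (edgeR adjusted p = 0.352), and that in mutants was 0.30.

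The JUNB genes encode Jun proteins that activate transcription less strongly than c-Jun in mammals. Neither passed with arsenite. For ENSDARG00000074378 exposed mutants averaged 2.31 ± 1.37 CPM and unexposed mutants 3.99 ± 2.49 (SD, n = 5 each), and exposed wild types 4.66 ± 2.40 and unexposed wild types 8.58 ± 6.38. The log2 changes were -0.80 ± 0.54 in mutants and -0.88 ± 0.53 in wild types (edgeR adjusted p = 0.201 and 0.168). For ENSDARG00000104773 they were -0.47 ± 0.32 and -0.73 ± 0.33 (edgeR adjusted p = 0.201 and 0.0685). In wild types ENSDARG00000104773 passed by DESeq2 (-0.77, adjusted p = 0.0321) and in edgeR when exposed replicate 5 (-0.91, adjusted p = 0.0356) or unexposed replicate 5 (-0.93, adjusted p = 0.0164) was left out.

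ATF3, a stress-induced factor that can repress its targets as a homodimer, rose in both genotypes. It was at 15.3, 12.2, 20.1, 15.3 and 14.2 CPM in exposed mutants, against 0.804, 0.757, 0.538, 0.316 and 1.87 CPM in unexposed mutants. The lowest exposed mutant library was over 6 times the highest unexposed one, and the rise was 4.15 ± 0.55 (17.8-fold, edgeR adjusted p = 1.59e-06). In wild types ATF3 was at 18.1, 25.4, 36.2, 16.6 and 8.14 CPM in exposed livers, against 5.43, 0.433, 1.82, 2.02 and 0.773 CPM in unexposed livers. The groups did not overlap, and the rise was 3.33 ± 0.52 (10.0-fold, edgeR adjusted p = 1.84e-05), or 4.04 without unexposed wild-type replicate 1 (edgeR adjusted p = 1.83e-06). That library held the highest ATF3, FOSL1, JUNB (ENSDARG00000104773) and JDP2 (ENSDARG00000020133) of its group, and 487 CPM of macrophage markers against 13.9 to 33.4 CPM in the other unexposed wild types. Its stellate cell markers summed to 462 CPM, against 192 to 217 CPM in the others. The part of those cells in the values of the 4 members was not tested.

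Both genes listed as JDP2, the Jun dimerization protein that represses AP-1 promoters, went the other way from ATF3, with which JDP2 shares a closely related zipper. JDP2 (ENSDARG00000020133) was at 0.615, 0.395, 0.669, 0.665 and 0.991 CPM in exposed mutants, against 7.61, 1.44, 1.2, 2.99 and 4.38 CPM in unexposed mutants. The groups did not overlap, and the log2 change was -2.4 ± 0.44 (edgeR adjusted p = 8.86e-05). In wild types it was at 0.337, 0.306, 1.11, 0.668 and 0.848 CPM in exposed livers, against 2.56, 1.39, 2.24, 1.94 and 1.44 CPM in unexposed livers, again without overlap (-1.53 ± 0.45, edgeR adjusted p = 0.00685, but -0.82 and 0.099 with total counts as library sizes).

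JDP2 (ENSDARG00000040137) lay under 1 CPM throughout. It averaged 0.301 ± 0.154 CPM in exposed mutants and 0.668 ± 0.106 CPM in unexposed mutants (SD, n = 5 each), without overlap, and 0.180 ± 0.138 CPM in exposed wild types and 0.572 ± 0.287 CPM in unexposed wild types, with overlap. Its falls were -1.13 ± 0.46 in mutants (edgeR adjusted p = 0.0387) and -1.63 ± 0.49 in wild types (edgeR adjusted p = 0.0089). Neither held with total counts as library sizes (-0.28 and -0.90, edgeR adjusted p = 0.619 and 0.13). The call in mutants was also lost when exposed mutant replicate 1, 3 or 5 or unexposed mutant replicate 1, 3 or 4 was left out (edgeR adjusted p = 0.0613 to 0.0946).

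egr1, the zinc finger factor of the group and a standard target of the serum response factor, had the largest falls of the 10 tested members in both genotypes. It was at 0.800, 2.27, 10.5, 6.95 and 5.99 CPM in exposed mutants, against 22.7, 13.7, 41.7, 137 and 75.9 CPM in unexposed mutants. No exposed mutant library reached the lowest unexposed one, and the change was -3.46 ± 0.84 (edgeR adjusted p = 0.00129), or -2.86 without unexposed mutant replicate 4. In wild types it was at 15.2, 1.93, 38.5, 5.09 and 55.0 CPM in exposed livers, against 142, 40.4, 162, 315 and 152 CPM in unexposed livers. The groups overlapped, since the lowest unexposed library (40.4 CPM) fell below the highest exposed one (55.0 CPM). The change was -2.81 ± 0.81 (edgeR adjusted p = 0.00629), or -3.46 without exposed wild-type replicate 5. Both falls passed under every alternative tried, including total counts as library sizes (-2.63 and -2.13, edgeR adjusted p = 0.00653 and 0.0216).

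In all, 5 of 10 members separated exposed from unexposed mutants without overlap (ATF3, FOSL1, egr1 and both JDP2 genes), against 48.2% of all tested genes. In wild types 3 of 10 did so (ATF3, FOSL1 and JDP2 ENSDARG00000020133), against 34.7%. Overlap was judged on TMM-scaled CPM. By total counts the groups of egr1 and of both JDP2 genes overlap, and those of ATF3 and FOSL1 do not. For example, egr1 had 550 of 35880196 counts in exposed mutant replicate 3, against 379 of 33013670 in unexposed mutant replicate 2. JDP2 (ENSDARG00000020133) had 44 of 32514275 counts in exposed wild-type replicate 3, against 41 of 39645961 in unexposed wild-type replicate 5.

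**Figure D2:**
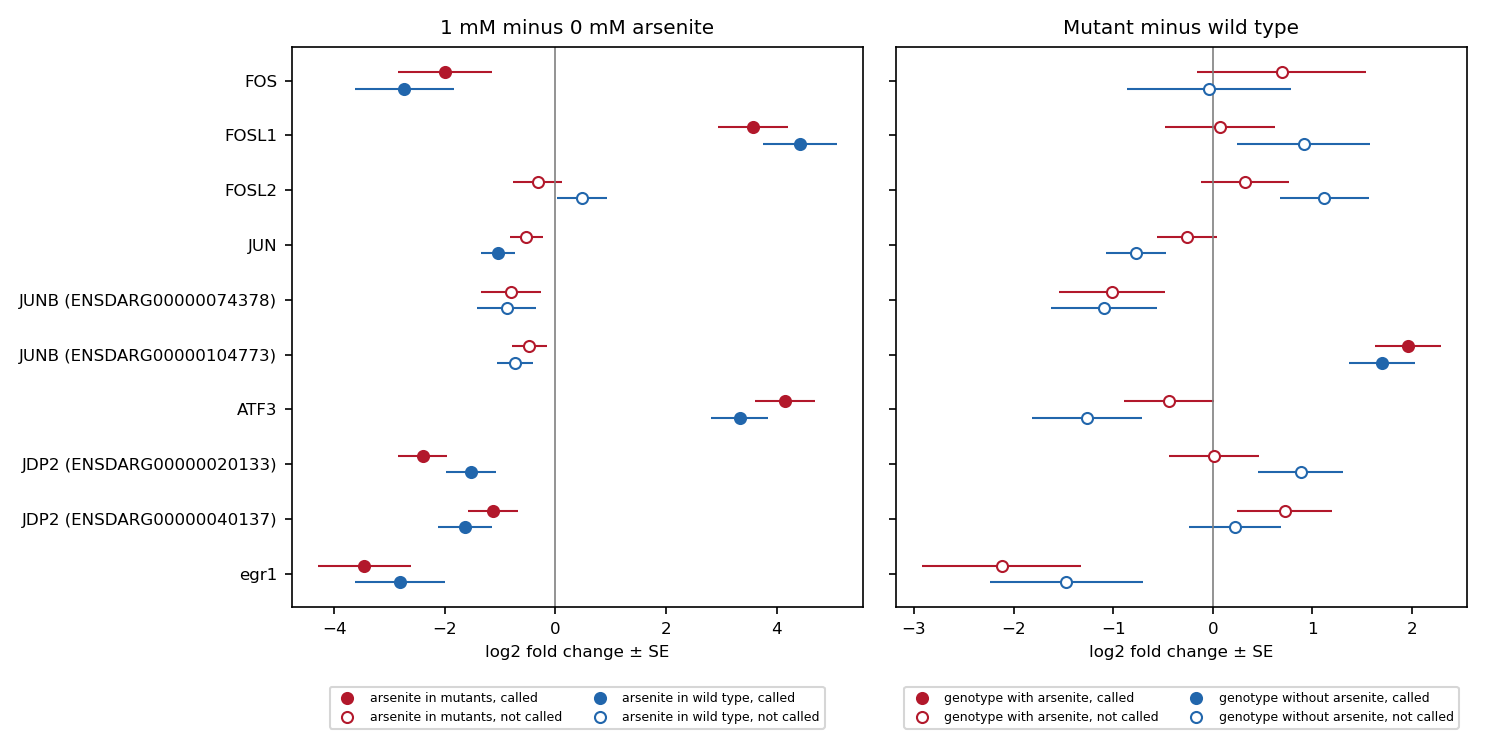
Log2 fold change ± SE of each tested member, with filled points for calls at an edgeR adjusted p under 0.05: left, exposed minus unexposed in mutants and wild types, and right, mutants minus wild types with and without arsenite. On the left ATF3 and FOSL1 lie at 3.33 to 4.42, and on the right the JUNB gene ENSDARG00000104773 is the called member, at 1.96 and 1.70.

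Between the lines, 1 of the JUNB genes stood apart. JUNB (ENSDARG00000104773) was at 10.7, 15.9, 20.8, 22.3 and 12.0 CPM in exposed mutants, against 2.36, 3.55, 5.12, 4.25 and 5.75 CPM in exposed wild types. It was at 16.9, 23.8, 12.5, 24.5 and 35.5 CPM in unexposed mutants, against 10.1, 4.81, 8.08, 9.16 and 2.88 CPM in unexposed wild types. At both exposures every mutant library lay above every wild-type library. Sums of exocrine pancreas markers overlapped between the lines, with higher medians in mutants. They were 14.9 to 641 CPM (median 149) in exposed mutants, against 17.7 to 49.6 CPM (median 44.6) in exposed wild types. Without arsenite they were 116 to 1430 CPM (median 266) in mutants, against 33.9 to 217 CPM (median 45.8) in wild types. Of the 14 marker identifiers, 6 were called higher in mutants with arsenite and 3 without it, and none lower. Their median log2 differences were 2.97 and 2.94. Of all tested genes, 7.68% and 5.91% were called higher in mutants. The part of pancreatic transcripts in the values of this JUNB gene was not tested. The log2 differences of the JUNB gene were 1.96 ± 0.33 with arsenite (3.88-fold, edgeR adjusted p = 0.000232) and 1.70 ± 0.33 without it (3.24-fold, edgeR adjusted p = 0.00173). Both calls held under every alternative tried.

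The other JUNB gene, ENSDARG00000074378, pointed the opposite way without passing, at -1.01 ± 0.53 with arsenite and -1.09 ± 0.53 without it (edgeR adjusted p = 0.196 and 0.185). How reads that match both JUNB genes were counted is not given in the sources used here, so the split between them is uncertain.

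JUNB (ENSDARG00000104773) was the 1 member of 10 called between genotypes with arsenite, where 20.6% of all tested genes were called (7.68% up and 12.9% down) and 15.4% did not overlap. It was likewise the 1 member called without arsenite, where 13.8% of all tested genes were called (5.91% up and 7.91% down) and 10.6% did not overlap. egr1 was lower in mutants on average, at 5.30 ± 3.86 CPM in exposed mutants and 23.1 ± 22.9 CPM in exposed wild types (-2.12 ± 0.80, edgeR adjusted p = 0.0658), and at 58.3 ± 50.3 CPM in unexposed mutants and 162 ± 98.2 CPM in unexposed wild types (-1.47 ± 0.77, edgeR adjusted p = 0.218; SD, n = 5 each). With arsenite the difference in egr1 passed by DESeq2 (-2.12, adjusted p = 0.0405) and in edgeR without exposed wild-type replicate 2 (-2.42, adjusted p = 0.0312) or 4 (-2.38, adjusted p = 0.0432). It also passed in edgeR with the replicate number as a block (-1.97, adjusted p = 0.0252). In order of mean level egr1 ran from exposed mutants over exposed wild types and unexposed mutants to unexposed wild types, and the ranges of neighbouring groups overlapped at each step.

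Without arsenite, ATF3 was at -1.26 ± 0.55, JUN at -0.77 ± 0.30 and FOSL2 at 1.12 ± 0.45 in mutants relative to wild types (edgeR adjusted p = 0.134, 0.0945 and 0.107). FOSL2 passed without unexposed mutant replicate 4 (1.37, edgeR adjusted p = 0.0345) or unexposed wild-type replicate 2 (1.48, edgeR adjusted p = 0.0368). JUN passed without the same 2 libraries (-1.04 and -0.95, edgeR adjusted p = 0.0314 and 0.0275) and by DESeq2 (-0.80, adjusted p = 0.0473). ATF3 passed without unexposed mutant replicate 5 (-1.81, edgeR adjusted p = 0.048).

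The arsenite responses of the 10 members were also compared between genotypes, as the response of mutants minus that of wild types. None of the 10 passed the edgeR test, none had an unadjusted p under 0.05, and none passed by DESeq2, against 3.98% of all tested genes called by edgeR (1.31% up and 2.67% down). The differences ranged from -0.87 ± 0.62 for JDP2 (ENSDARG00000020133) to 0.83 ± 0.71 for ATF3. The 95% intervals were wide: they ran from -0.66 to 2.31 for ATF3, from -2.65 to 0.96 for FOSL1 and from -2.90 to 1.60 for egr1 on the log2 scale. A difference of 2-fold in either direction lies within the interval for egr1, as it does for FOS (-1.73 to 3.19) and JUNB (ENSDARG00000074378, -1.49 to 1.65).

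Replicate pools differed more in most of these genes than in the typical gene. The SD of log2 CPM within groups was 1.66 for FOS, 1.5 for egr1 and 1.1 for FOSL1, against a median of 0.338 over all tested genes. Of all tested genes, 99.3% had a smaller SD than FOS, 99.0% a smaller one than egr1, 97.0% than FOSL1, 95.3% than JUNB (ENSDARG00000074378) and 94.3% than ATF3. JUN was the steadiest member, with an SD of 0.499, above that of 69.2% of genes. Within a group, FOS spanned 89.0-fold from lowest to highest library in exposed wild types and 16.8-fold in unexposed mutants, and egr1 spanned 28.5-fold in exposed wild types. The 89.0-fold span of FOS rests on few reads, since exposed wild-type replicate 2 held 2 FOS counts.

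**Figure D3:**
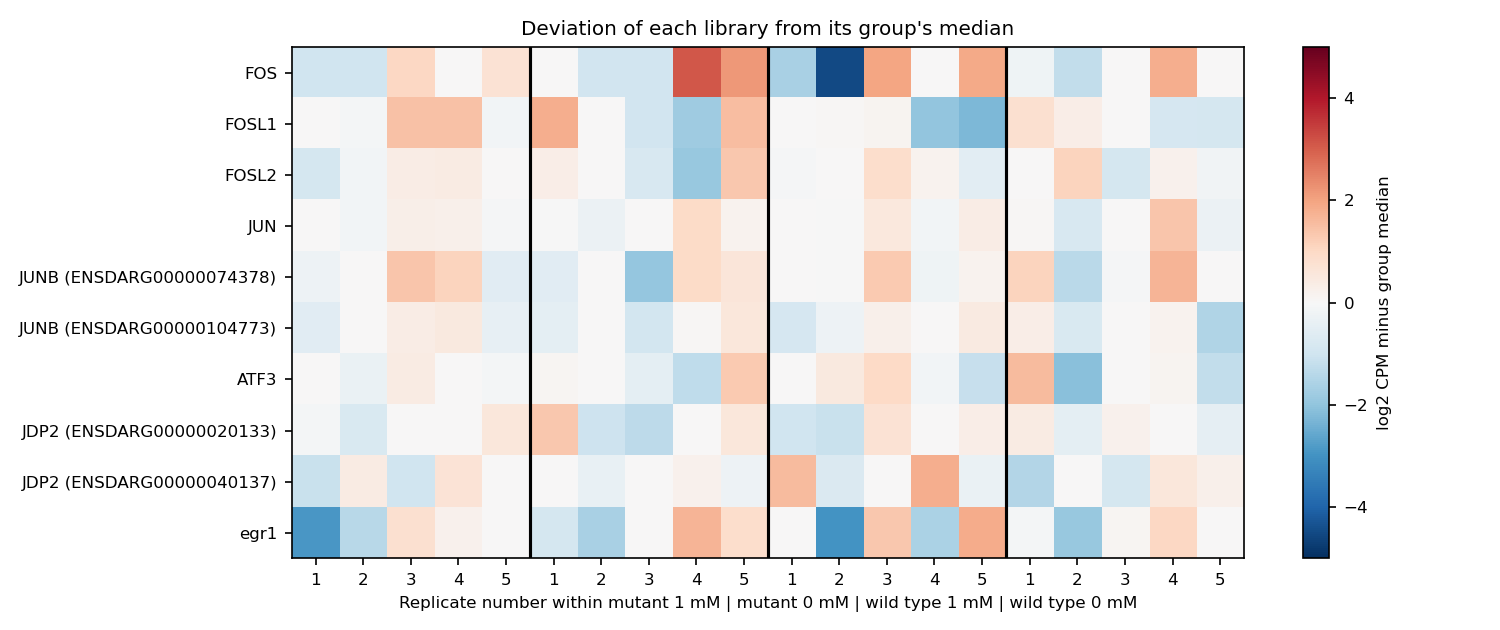
Log2 CPM of each tested member minus the median of its group, for replicates 1 to 5 of the 4 groups divided by black lines; red is above and blue below the group median. Replicate 4 of both unexposed groups is red for FOS, JUN, egr1 and JUNB (ENSDARG00000074378).

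Some members shared their high library. In unexposed mutants replicate 4 held the highest value of 5 members, and in unexposed wild types replicate 4 also held the highest of 5: FOS, JUN, JUNB (ENSDARG00000074378), JDP2 (ENSDARG00000040137) and egr1 in each case. ATF3 did not share this, with 0.316 CPM in unexposed mutant replicate 4, the lowest of its group, and 2.02 CPM in the wild-type one. Over all tested genes, replicate 4 was the highest library for 20.9% of genes in unexposed mutants and 19.8% in unexposed wild types. In exposed wild types replicate 3 held the highest value of 7 members, and in exposed mutants replicate 3 held that of 5, against 18.8% and 14.1% of all tested genes. Muscle markers summed to 114 CPM in exposed wild-type replicate 3, against 1.70 to 30.1 CPM in the other exposed wild types, and to 22.6 CPM in exposed mutant replicate 3, within the 4.23 to 26.6 CPM of its group. The part of muscle transcripts in these values was not tested.

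Some other early genes, chosen after their values were seen, were high in the same unexposed libraries, and others were low there. The antiproliferative factor BTG2 was at 21.1 CPM in unexposed mutant replicate 4 and 1.84 to 11.3 CPM in the other unexposed mutants, and at 21.4 CPM in unexposed wild-type replicate 4 and 2.50 to 8.53 CPM in the others. The immediate early gene ier2a was at 18.7 CPM in the mutant library, against 4.39 to 9.28 CPM in the other 4, and at 31.6 CPM in the wild-type library, against 7.65 to 20.9 CPM. The early gene sgk1 was instead at its lowest in both. It was at 73.5 CPM in the mutant library, against 88.8 to 443 CPM in the other unexposed mutants. In the wild-type library it was at 133 CPM, against 188 to 351 CPM in the other unexposed wild types. Over the whole list of other early response genes, replicate 4 was the highest library for 21.3% of 47 tested genes in unexposed mutants and 27.7% in unexposed wild types, so most of the list did not share the pattern. Unexposed wild-type replicate 4 also held the highest sum of skin markers, at 273 CPM against 42.1 to 60.8 CPM in the other unexposed wild types. In unexposed mutants, replicate 4 was at 77.0 CPM of skin markers, within the range of 44.9 to 81.6 CPM of its group. The part of skin transcripts in these values was not tested.

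For each member called with arsenite, the genes with the closest profile over the 20 libraries were found by the root mean square distance of centred log2 CPM. It was computed for 8363 genes outside the group that had a symbol and a mean of at least 5 CPM. The nearest to ATF3 were si:ch211-210p4.6 (distance 0.727, against 2.16 for a flat profile) and TSTD1, a thiosulfate sulfurtransferase (0.824). TSTD1 was at a mean of 119 CPM in exposed mutants and 4.19 CPM in unexposed mutants, and at 136 CPM in exposed wild types and 6.75 CPM in unexposed wild types. For FOSL1 they were PFKFB3, a glycolytic regulator (0.799, against 2.23), and si:ch211-39i2.2 (0.817). For JDP2 (ENSDARG00000020133) they were ppp1r15a, a phosphatase subunit of the stress response (0.612, against 1.13), and BCO1, which cleaves carotene (0.630).

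The nearest genes to egr1 and FOS were less close. For egr1 they were CSAD, an enzyme of taurine synthesis (1.23, against 2.34), and the plasma protein gene ahsg2 (1.24). For FOS they were insig1 and CYP51A1, a regulator and an enzyme of sterol synthesis (1.31 and 1.32, against 1.99). JUN lay nearest to SESN1 and CCNG2 (0.331 and 0.338, against 0.608), and JDP2 (ENSDARG00000040137) to LHX9 and SIN3A (ENSDARG00000079716) (0.577 and 0.589, against 0.919).

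Genes around AP-1 were counted in 7 lists. Of all tested genes, 61.8% were called in mutants, 31.5% up and 30.3% down. In wild types 53.3% were called, 28.7% up and 24.6% down. The arsenite counts of each list are to be read against these shares. List counts scaled by total counts have another background: with that scaling 11804 of 16389 tested genes were called in mutants and 11053 in wild types. Of 6 tested genes among the other bZIP genes of the AP-1 group, 1 rose and 3 fell in mutants and 1 rose and 1 fell in wild types. BATF3, which pairs with Jun proteins in immune cells of mammals, rose by 3.95 ± 0.77 in mutants (edgeR adjusted p = 0.00015) and 2.50 ± 0.71 in wild types (edgeR adjusted p = 0.00568). It averaged 5.39 CPM in exposed mutants and 0.337 CPM in unexposed mutants, and 4.27 CPM in exposed wild types and 0.770 CPM in unexposed wild types. Macrophage markers summed to 7.71 to 16.1 CPM in exposed mutants and 16.9 to 127 CPM in unexposed mutants, and to 8.22 to 17.8 CPM in exposed wild types and 13.9 to 487 CPM in unexposed wild types. ATF7 (ENSDARG00000055481) was at -0.82 ± 0.15 in mutants and -0.67 ± 0.15 in wild types, and JUND, the most steadily expressed Jun gene in mammals, was at -0.64 ± 0.26 in mutants (edgeR adjusted p = 0.0404). The changes of ATF7 and JUND turned to 0.01 and 0.22 in mutants with total counts as library sizes, and that of ATF7 to 0.04 in wild types, and the list then had 2 genes up in mutants and 3 in wild types with none down.

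**Figure D4:**
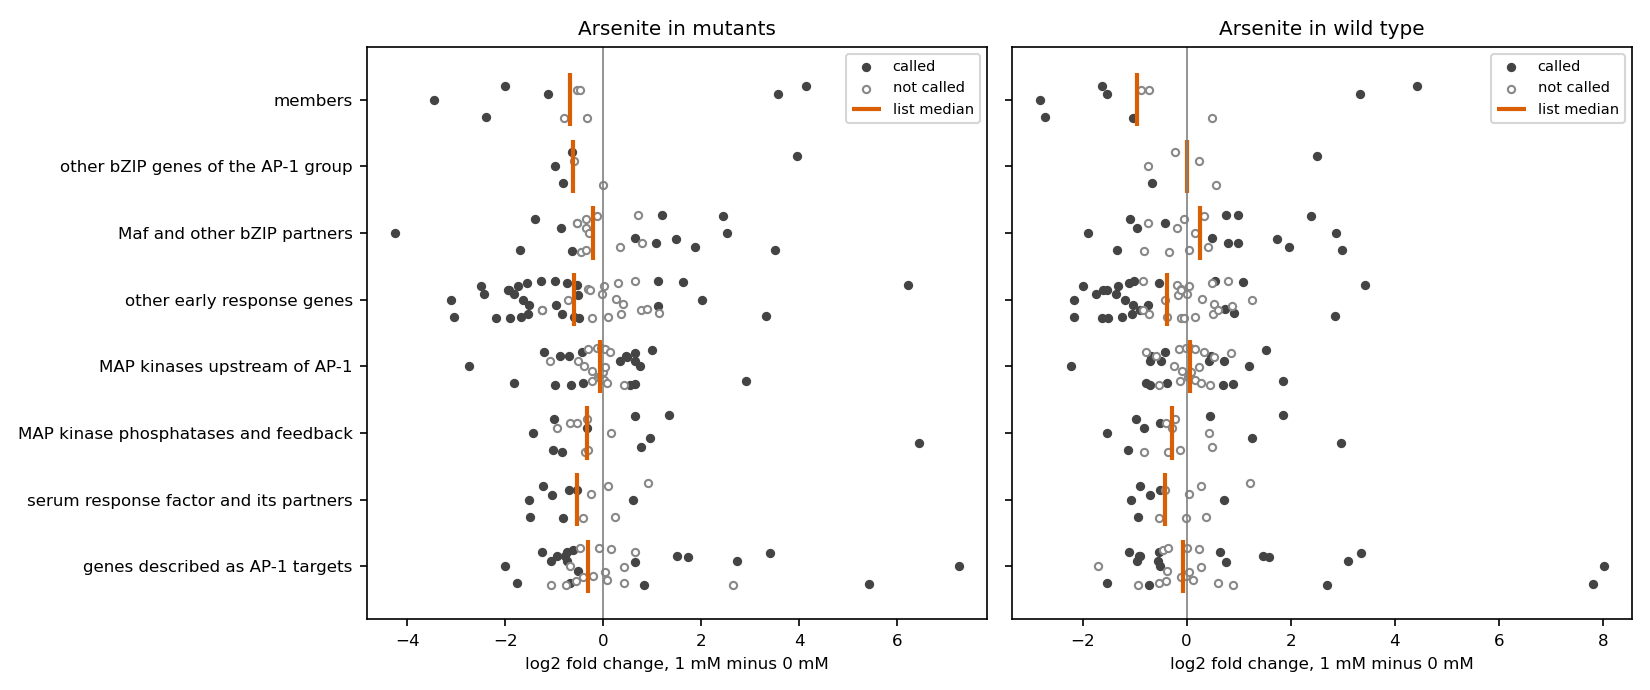
Log2 fold change of exposed minus unexposed livers for the members and 7 related lists in mutants (left) and wild types (right), 1 point per tested gene, with the list median as an orange bar. Medians lie between -0.96 and 0.25, and genes of each list lie on both sides of 0.

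Other bZIP partners moved in both directions. Of 24 tested Maf, Nrf, Bach, C/EBP and ATF4-related genes, 8 rose and 5 fell in mutants (median -0.20), and 10 rose and 5 fell in wild types (median 0.25). Scaled by total counts, these were 13 up and 3 down, and 14 up and 2 down. The small Maf gene maff, a partner of Nrf and Bach proteins, rose by 2.44 ± 0.17 in mutants and 1.97 ± 0.17 in wild types (edgeR adjusted p = 2.1e-10 and 9.44e-09). The stress factor gene nfe2l1b rose by 1.88 ± 0.15 and 1.73 ± 0.15, and atf5a by 3.51 ± 0.44 and 2.87 ± 0.43. NFE2L2, which encodes Nrf2, the main activator of antioxidant genes, fell by 1.39 ± 0.15 in mutants and 1.09 ± 0.15 in wild types. Scaled by total counts, its changes were -0.56 and -0.38. The related gene nfe2l2b did not pass, at -0.35 ± 0.37 and -0.81 ± 0.37 (edgeR adjusted p = 0.424 and 0.0692).

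Of 47 other early response genes tested, 6 rose, 25 fell and 16 were not called in mutants (median -0.59), and 6 rose, 19 fell and 22 were not called in wild types (median -0.37). Over all tested genes, 31.5% rose and 30.3% fell in mutants, and 28.7% rose and 24.6% fell in wild types. With total counts as library sizes the counts of the list turned to 17 up and 9 down in mutants and 19 up and 6 down in wild types, with medians of 0.24 and 0.38. The ADP-ribosyltransferase gene tiparp rose by 3.33 ± 0.25 and 2.86 ± 0.24. The flow-responsive factor klf2a was at -1.51 ± 0.15 and -1.35 ± 0.15. The clock gene PER1 (ENSDARG00000012499) was at -3.04 ± 0.24 in mutants and -1.74 ± 0.23 in wild types, and PER1 (ENSDARG00000056885) at -2.18 ± 0.23 and -1.01 ± 0.22. Both PER1 genes fell more in mutants, with differences of -1.30 ± 0.31 and -1.17 ± 0.31 (edgeR adjusted p = 0.0229 and 0.0396), while csrnp1a was at -1.83 ± 0.38 in mutants and 0.30 ± 0.38 in wild types (difference -2.13 ± 0.54, edgeR adjusted p = 0.0291).

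With TMM scaling, about as many transcripts of the kinases that activate AP-1 rose as fell, much as over all tested genes. Of 36 tested, 10 rose and 9 fell in mutants and 8 rose and 8 fell in wild types, with medians of -0.06 and 0.06. Scaled by total counts, 24 rose and 1 fell in mutants and 23 rose and 1 fell in wild types. With that scaling 11804 and 11053 of 16389 tested genes were called. MAP2K6, which activates p38, fell by 2.74 ± 0.20 and 2.22 ± 0.20 (edgeR adjusted p = 4.12e-10 and 1.68e-08). MAP3K20, the ribotoxic stress kinase upstream of p38 and JNK, rose by 2.92 ± 0.31 and 1.86 ± 0.30. MAP3K5, the oxidative stress kinase ASK1, was at -0.98 ± 0.15 and -0.71 ± 0.15, and was lower in mutants than in wild types both with arsenite (-0.86 ± 0.15, edgeR adjusted p = 0.000264) and without it (-0.58 ± 0.15, edgeR adjusted p = 0.0112). Its arsenite changes scaled by total counts were -0.15 and 0.02. RPS6KA3 (ENSDARG00000035556), a kinase downstream of ERK, rose by 0.76 ± 0.11 in mutants, and its difference between the responses passed (0.69 ± 0.16, edgeR adjusted p = 0.0203). These are transcript levels, and kinase activity was not measured.

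Among 17 tested MAP kinase phosphatases and feedback inhibitors, 5 rose and 5 fell in mutants, and 4 rose and 5 fell in wild types (10 up and 1 down, and 9 up and 1 down, with total counts as library sizes). DUSP1, an early phosphatase that acts on JNK and p38, was at -0.32 ± 0.21 in mutants and -0.12 ± 0.21 in wild types (edgeR adjusted p = 0.192 and 0.657). DUSP7 fell by 1.03 ± 0.12 and 1.13 ± 0.12 and the ERK inhibitor spred2a by 1.43 ± 0.14 and 0.97 ± 0.14. DUSP5, an ERK phosphatase, rose by 1.35 ± 0.43 in mutants and 1.86 ± 0.43 in wild types (edgeR adjusted p = 0.00938 and 0.00122).

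Of 13 tested genes of the serum response factor and its partners, 1 rose and 7 fell in mutants and 1 rose and 5 fell in wild types, with medians of -0.53 and -0.42 that turned to 0.31 and 0.29 with total counts as library sizes, where 4 rose and 2 fell in mutants and 5 rose and none fell in wild types. The SRF genes themselves did not pass: ENSDARG00000053918 was at 0.10 ± 0.21 and 0.05 ± 0.21, and ENSDARG00000102867 at 0.92 ± 0.52 and 1.22 ± 0.53 (edgeR adjusted p = 0.695, 0.849, 0.13 and 0.0598). The partner genes ELK1 (-1.05 ± 0.17 and -0.93 ± 0.17), ELK3 (-0.69 ± 0.13 and -0.71 ± 0.13) and ELK4 (-1.50 ± 0.21 and -0.90 ± 0.21) fell relative to the bulk of genes in mutants and wild types. That of ELK3 turned to 0.15 and 0.02 with total counts as library sizes.

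Genes described elsewhere as AP-1 targets did not move one way. Of 34 tested, 8 rose and 11 fell in mutants (median -0.31), and 9 rose and 9 fell in wild types (median -0.07). Scaled by total counts, these were 14 up and 3 down, and 15 up and 1 down. The keratin gene krt18a.1 rose by 1.5 ± 0.19 and 1.47 ± 0.19, to means of 1300 CPM in exposed mutants, against 460 CPM in unexposed mutants, and 1110 CPM in exposed wild types, against 402 CPM in unexposed wild types. It is also 1 of the 8 biliary marker identifiers, which summed to 2450 to 3290 CPM in exposed mutants and 1960 to 2380 CPM in unexposed mutants. They summed to 2360 to 3500 CPM in exposed wild types and 2350 to 2710 CPM in unexposed wild types. These sums include krt18a.1 itself. Of the 8 identifiers, 1 was called up and 3 down in each genotype, with median log2 changes of -0.70 in mutants and -0.45 in wild types. Scaled by total counts, 3 were up and none down in each, with medians of 0.14 and 0.28. The cyclin gene CCNA2 rose by 2.73 ± 0.40 and 2.69 ± 0.40. The hyaluronan receptor gene cd44a and the urokinase gene plaua, chosen after their values were seen, rose by 3.41 ± 0.59 and 5.43 ± 0.85 in mutants and 3.10 ± 0.64 and 3.35 ± 0.72 in wild types. Their means were 2.70 and 0.757 CPM in exposed mutants, against 0.263 and 0.0133 CPM in unexposed mutants, and 1.38 and 0.631 CPM in exposed wild types, against 0.161 and 0.0608 CPM in unexposed wild types. With so few unexposed reads, plaua could pass the count filter only through its exposed libraries, and the size of its rise is uncertain. The matrix protease genes MMP14 (ENSDARG00000008388) and MMP2 fell, at -1.76 ± 0.15 and -2.01 ± 0.28 in mutants and -1.10 ± 0.15 and -1.53 ± 0.28 in wild types. Pooled livers do not show which cells expressed them. The sum of stellate cell markers was 75.8 to 98.9 CPM in exposed mutants and 183 to 261 CPM in unexposed mutants. It was 97.3 to 119 CPM in exposed wild types and 192 to 462 CPM in unexposed wild types. The part of stellate cells in the MMP values was not tested.

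Between the lines, a few genes of these lists differed. CEBPD, an acute-phase factor, was lower in mutants with arsenite (-1.12 ± 0.26, edgeR adjusted p = 0.00331) and without it (-0.77 ± 0.25, edgeR adjusted p = 0.0476), at means of 67.6 CPM in exposed mutants, against 147 CPM in exposed wild types, and 218 CPM in unexposed mutants, against 372 CPM in unexposed wild types. MAF (ENSDARG00000076520) was lower in mutants in both comparisons too (-4.75 ± 0.85 and -2.41 ± 0.71, edgeR adjusted p = 0.00042 and 0.0265). GADD45A (ENSDARG00000043581), a stress gene that activates p38 signalling, was higher in exposed mutants than in exposed wild types (1.17 ± 0.29, edgeR adjusted p = 0.00592). Without arsenite the related GADD45B genes ENSDARG00000013576 and ENSDARG00000027744 were lower in mutants (-1.36 ± 0.29 and -1.27 ± 0.42, edgeR adjusted p = 0.0038 and 0.0491), as was DUSP2, a MAP kinase phosphatase (-2.45 ± 0.58, edgeR adjusted p = 0.00711). In the list of 47 other early response genes 1 was higher and 7 lower in mutants with arsenite, and 3 were lower without it, against the shares of 20.6% and 13.8% over all tested genes. Scaled by total counts, 5 were higher and 5 lower with arsenite and 2 were lower without it. With that scaling 5470 of 16389 tested genes were called with arsenite and 2586 without it.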

How the data were processed

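The authors deposited 1 table of raw whole-number counts per Ensembl gene for each of 20 libraries. Per the submitters' processing notes, FastQC 0.11.5, Trimmomatic 0.36 and build GRCz10 were used. The aligner, the counting tool and the strand setting are not given in the sources used here. Members and gene lists were chosen with earlier results of these data known.

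Symbols were matched ignoring case, then without a final a or b, then by RefSeq synonym (FOS for fosab). Genes were filtered by filterByExpr (16389 kept), scaled by TMM and fitted with 4 group means over all 20 libraries in edgeR 4.0.16 (R 4.3.3, estimateDisp, glmQLFit, glmQLFTest), with 2-sided tests and Benjamini-Hochberg adjustment over all tested genes. Standard errors are the absolute log2 change over the square root of F, and 95% intervals use the t quantile of the fit. The code was tested on simulated data. Log2 CPM used a prior count of 2.

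Named genes were every member, up to 4 called genes per list and comparison with the smallest adjusted p, regulators of members, and the 2 nearest profiles. Outside this rule, BTG2, ier2a, sgk1, cd44a and plaua were chosen after their values were seen, and nfe2l2b was named beside the related NFE2L2. Alternatives used DESeq2 1.42.0, other scaling, filters and dispersions, subsets of libraries and a replicate block. The labels do not say whether pools came from separate clutches, so p-values measure the spread between these pools. No sequences were used here.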

Additional observations from a re-analysis of the deposited data

Results flagged for a closer look

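In 40 groups of 5 libraries (10 tested members in 4 groups), 4 single values stood far from the rest of their group by Dixon's ratio, whose limit for 5 values is 0.71. The ratio was taken on CPM and not on log2 CPM. That limit marks about 1 in 20 groups by chance only if values are normally distributed, so the chance rate here is not known. JUN was at 37.1 CPM in unexposed mutant replicate 4, against at most 21.4 CPM in the other unexposed mutants, and at 81.6 CPM in unexposed wild-type replicate 4, against at most 33.0 CPM in the other unexposed wild types. FOS was at 43.4 CPM in the same unexposed wild-type library, against at most 12.6 CPM in the others. JUNB (ENSDARG00000074378) was at 8.90 CPM in exposed wild-type replicate 3, against at most 4.11 CPM in the other exposed wild types, and muscle markers summed to 114 CPM in that library, whose part in the value was not tested. No member's arsenite response passed the test of a difference between genotypes.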

How the results depend on the processing

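No called member reversed direction under any alternative. The count of members called went to 2 for genotype with arsenite by DESeq2 and with the replicate block (egr1 passing as well, -1.97, edgeR adjusted p = 0.0252), and to 2 for genotype without arsenite by DESeq2, against 1 each. With 1 library left out it was 4 to 7 for arsenite in mutants, 6 to 8 for arsenite in wild type, 1 to 2 for genotype with arsenite, 1 to 3 for genotype without arsenite and 0 to 0 for the difference of the responses. The block changed no other call of a member. Of 30 pairs of same-numbered libraries, 15 had deviations correlated above 0.1 (-0.0796 to 0.398), against 11 of 120 other pairs, and 18 of 30 best matched their own number. This is a hint from the data that libraries of 1 number share something. The titles also carry the same numbers, cl1 to cl5, in all 4 groups. The labels do not say what the number marks, and not every pair passed 0.1, so the block was kept as an alternative. With total counts as library sizes the arsenite calls of FOS in mutants (-1.2), JUN in wild types (-0.33), JDP2 (ENSDARG00000040137) in both (-0.28 and -0.90) and JDP2 (ENSDARG00000020133) in wild types (-0.82) were lost. FOS in mutants was also lost with robust dispersions and without a filter (edgeR adjusted p = 0.0735 and 0.053), as was JDP2 (ENSDARG00000040137) without a filter (0.0723). The cause was not tested. JDP2 (ENSDARG00000040137) had 37 to 94 counts per group. A fit of only the groups compared was not run for the difference of the responses, which needs all 4.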
